A study of Homo sapiens with 9 samples.

Results

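The 10 genes described here are the classical cadherins CDH1 (E-cadherin), CDH2 (N-cadherin) and CDH3 (P-cadherin), the intermediate filament gene VIM (vimentin), and the transcription factor genes SNAI1, SNAI2, ZEB1, ZEB2, TWIST1 and TWIST2. They were taken by symbol from the 60199 symbols of the gene count table, and all 10 had counts in every library and passed the filter on low counts. Together they are the genes most often read in epithelial-to-mesenchymal transition (EMT), the programme in which epithelial cells give up their junctions and apical-basal polarity and take on a motile, fibroblast-like form.

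In epithelia, E-cadherin molecules of neighbouring cells bind each other outside the cell and hold the actin skeleton through catenins inside it. Factors of the Snail, ZEB and Twist families bind E-box motifs, and those of the Snail and ZEB families repress CDH1 and other epithelial genes directly. The ZEB messengers are in turn held down by microRNAs of the miR-200 family and by miR-205. Basal cells of the mammary gland carry P-cadherin and SNAI2 in their normal state, and cultured basal lines often carry vimentin.

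The study set out to follow early transformation of mammary epithelial cells, and RNA was sequenced from 3 independent cultures of each of 3 related lines. CT was untreated MCF10A, a spontaneously immortalised, nonmalignant human mammary epithelial line. MC26 came from unsorted MCF10A cells kept long term with the ligands BMP2 and IL6. M1B26 started from the BMPR1B-positive fraction of MCF10A, BMPR1B being a receptor for BMP ligands, and was built from soft-agar clones expanded in BMP2 and IL6. Both transformed lines were grown with BMP2 and IL6 in the medium, and CT without, so that the presence of the ligands, the long exposure and the choice of cells cannot be told apart. The sources used here do not say whether the M1B26 cultures held a pool of those clones or 1 clone each. The p-values set differences between groups against the spread between the cultures sampled. These cultures replicate each line and not its derivation.

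Total counts per library, in units of 1000000, ran from 21.4 to 80.1. Markers of mammary basal cells, KRT5 among them, were present in every group: all 8 had a mean of at least 1 CPM, the count scaled to a library of 1000000, and their sum ran from 9570 to 11800 CPM in CT, 16600 to 22700 in MC26 and 11900 to 12700 in M1B26. KRT14, a basal keratin named after its values were seen, averaged 54.1 ± 10.4 CPM (SD, n = 3) in CT, and 1097 ± 386 and 548 ± 82.4 in MC26 and M1B26. By the edgeR test at an adjusted p under 0.05, 6 of the 8 were higher and 0 lower in MC26 than in CT, beside 18.8% and 19.9% of all genes. In M1B26 5 were higher and 1 lower, beside 25.2% and 23.7%. The 1 lower was KRT5 (log2 fold change -0.42, edgeR adjusted p = 0.00435), which differed from CT by -0.07 in MC26 (adjusted p = 0.585). The 8 luminal markers, KRT18 the highest, summed to 974 to 1180 CPM in CT, 752 to 921 in MC26 and 901 to 950 in M1B26. By the same test 1 of the 6 tested was higher and 3 lower than CT in each transformed line, beside the same shares of all genes. The 8 fibroblast markers summed to at most 37.8, 56.8 and 39.9 CPM in CT, MC26 and M1B26, with DPT at 0 counts in all libraries. The 6 endothelial markers summed to at most 8.47, 3.88 and 6.7 CPM, and the 6 leukocyte markers to at most 25.7, 51.6 and 84.2 CPM, most of the latter CD14 and CD68, with CD3E at 0 counts throughout.

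Against CT, 6 of the 10 genes passed the edgeR test at an adjusted p under 0.05 in MC26 and 4 in M1B26. Those that passed in MC26 were SNAI2, CDH3 and ZEB1, which rose, and CDH1, CDH2 and ZEB2, which fell; those in M1B26 were SNAI2, which rose, and CDH1, CDH2 and ZEB2, which fell. Over all 15717 genes tested, 38.7% passed in MC26 against CT and 48.9% in M1B26 against CT. The 6 of 10 in MC26 lies above the share of all genes and the 4 of 10 in M1B26 below it, and no test of the list as such was made. Between the transformed lines, 6 of the 10 were lower in M1B26 than in MC26 and 0 were higher, where 39.5% of all genes passed in either direction and 18.4% were lower. With total counts as the only scaling, the share of all called genes that were higher was 35.8% in place of 48.5% in MC26 and 39.6% in place of 51.5% in M1B26. The median log2 fold change over the 10 genes was -0.12 in MC26 against CT, -0.32 in M1B26 against CT and -0.44 in M1B26 against MC26, beside medians of 0.00 over all genes tested. In these bulk cultures fewer cells that carry a transcript and less of it per cell cannot be told apart. MC26 and M1B26 were compared with the same CT libraries, so their changes against CT are not independent of each other.

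**Figure D1:**
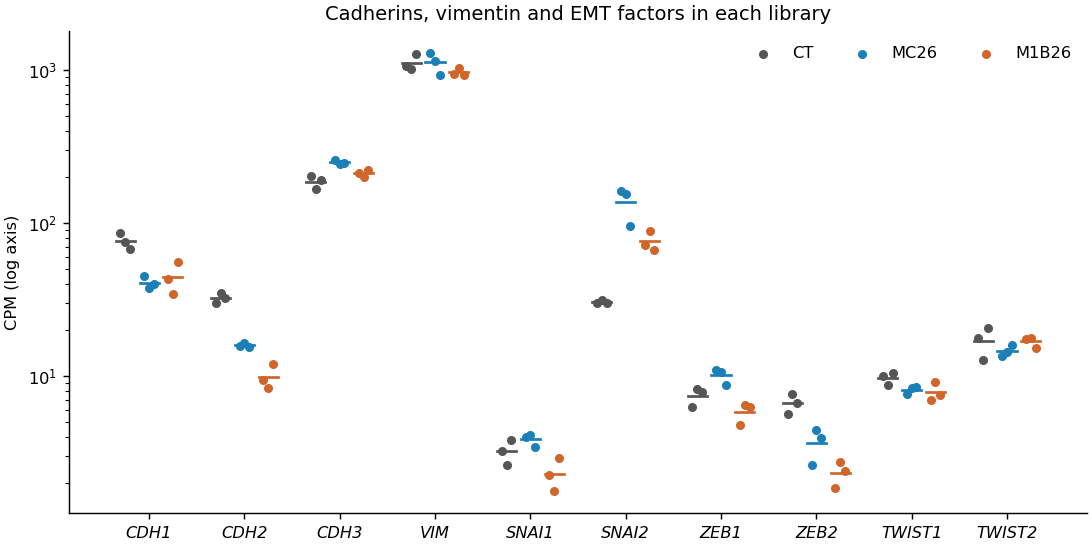
Level of each gene in each library, in CPM after scaling (log axis); points are the 3 libraries of a group and short lines their mean. SNAI2 stands apart with MC26 at 96.3 to 163 CPM against 29.9 to 31.3 in CT, CDH2 falls from CT to MC26 to M1B26 with no overlap, and the VIM points of the groups overlap between 929 and 1287 CPM.

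E-cadherin, the adhesion molecule of epithelial junctions, is encoded by CDH1 (chr16:68737292-68835537, GRCh38, plus strand). Its level was 86.2, 75.3 and 67.6 CPM in the CT libraries, 44.8, 37.6 and 39.9 in MC26 and 42.8, 34.2 and 55.3 in M1B26. Every transformed library was below every CT library, and the MC26 and M1B26 ranges overlapped. CDH1 was 1.87-fold lower in MC26 (log2 fold change -0.91, SE 0.15, edgeR adjusted p = 0.00097) and 1.73-fold lower in M1B26 (-0.79, SE 0.15, adjusted p = 0.00149). Between M1B26 and MC26 the log2 difference was 0.12 with a 95% interval of -0.22 to 0.45 (adjusted p = 0.577).

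P-cadherin, the cadherin of basal and myoepithelial cells, is encoded by CDH3 at chr16:68636189-68727468 on the same strand, 9823 bp before CDH1. The CT libraries held 203, 166 and 191 CPM, MC26 held 258, 241 and 247, and M1B26 held 213, 198 and 222. All MC26 libraries lay above all other libraries, whereas M1B26 overlapped CT. CDH3 rose 1.33-fold in MC26 (log2 fold change 0.41, SE 0.08, edgeR adjusted p = 0.00219), and in M1B26 the difference from CT was 0.18 (95% interval 0.00 to 0.36, adjusted p = 0.0866). The neighbouring cadherin genes thus moved in opposite directions in MC26.

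N-cadherin, carried by neural, mesenchymal and many carcinoma cells and the usual partner of E-cadherin in a cadherin switch, is encoded by CDH2 (chr18:27932879-28177946, minus strand). It measured 29.95, 34.7 and 32.6 CPM in CT, 15.7, 16.5 and 15.4 in MC26 and 9.42, 8.31 and 12 in M1B26. The 3 groups did not overlap, with CT highest and M1B26 lowest. CDH2 was 2.04-fold lower in MC26 (log2 fold change -1.03, SE 0.12, edgeR adjusted p = 7.92e-05) and 3.26-fold lower in M1B26 (-1.70, SE 0.12, adjusted p = 1.95e-06), and M1B26 lay a further 1.6-fold below MC26 (-0.68, SE 0.12, adjusted p = 0.00157). The direction is the opposite of the gain of N-cadherin by which the switch is defined.

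The proximal promoters are shown for CDH2 and ZEB2, which fell in both lines, and for ZEB1, which did not. RefSeq windows of 250 bases before to 50 bases after a transcription start (GRCh38.p14) were found for 5 of the 10 genes, CDH2, VIM, ZEB1, ZEB2 and TWIST2. Where a gene had several starts, the window nearest the annotated 5′ end of the gene was taken. The motif searched on both strands was CACCTG, which reads on the other strand as CAGGTG, the E-box form bound by Snail and ZEB proteins, printed in capitals. It is 1 of the sequences covered by the general E-box CANNTG, and it occurred in 20.6% of all 35116 promoter windows of this length, CANNTG in 68.7%.
CDH2 promoter, chr18:28177081-28177380, minus strand: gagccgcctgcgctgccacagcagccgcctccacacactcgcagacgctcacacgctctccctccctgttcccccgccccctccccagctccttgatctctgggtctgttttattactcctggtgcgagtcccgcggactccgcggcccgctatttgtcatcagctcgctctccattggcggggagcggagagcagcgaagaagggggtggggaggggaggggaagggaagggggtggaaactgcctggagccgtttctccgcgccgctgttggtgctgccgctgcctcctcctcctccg
ZEB2 promoter, chr2:144520070-144520369, minus strand: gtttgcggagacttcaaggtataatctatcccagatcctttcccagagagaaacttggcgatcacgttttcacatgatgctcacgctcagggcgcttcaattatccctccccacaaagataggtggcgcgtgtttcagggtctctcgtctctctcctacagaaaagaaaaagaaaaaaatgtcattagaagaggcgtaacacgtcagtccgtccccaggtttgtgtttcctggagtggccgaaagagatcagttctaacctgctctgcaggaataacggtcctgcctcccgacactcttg
ZEB1 promoter, chr10:31318167-31318466, plus strand: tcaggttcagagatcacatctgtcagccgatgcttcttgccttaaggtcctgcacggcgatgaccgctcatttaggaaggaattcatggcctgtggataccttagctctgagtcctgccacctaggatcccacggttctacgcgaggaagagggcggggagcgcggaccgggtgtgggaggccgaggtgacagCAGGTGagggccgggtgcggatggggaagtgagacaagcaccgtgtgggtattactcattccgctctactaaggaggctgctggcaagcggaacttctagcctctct
CACCTG was found in 1 of the 5 windows, that of ZEB1, where it begins 57 bases before the start, and 2 of the 7 windows of ZEB1 starts held it. CANNTG occurred 2 times in the ZEB1 window, 1 time in the ZEB2 window and 0 times in those of CDH2, VIM and TWIST2. The GC content was 67% for CDH2, 49% for ZEB2 and 58.3% for ZEB1. These matches describe the letters of the windows and say nothing of binding, which was not measured.

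Ratios of cadherin counts within a library do not depend on how the libraries are scaled. The log2 ratio of CDH3 to CDH1 counts was 1.23, 1.14 and 1.497 in CT, 2.52, 2.68 and 2.63 in MC26 and 2.32, 2.54 and 2.01 in M1B26. Both transformed lines lay above CT without overlap, by 1.32 in MC26 and 0.996 in M1B26 (2-sided exact permutation test, p = 0.1 each, the smallest p that 3 against 3 libraries can give). In counts, CDH3 exceeded CDH1 2.21- to 2.82-fold in CT, 5.75- to 6.43-fold in MC26 and 4.02- to 5.8-fold in M1B26. CDH3 counts thus exceeded CDH1 counts by more in each transformed line than in CT. The proteins were not measured here.

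For CDH2 over CDH1 the log2 ratio was -1.53, -1.12 and -1.05 in CT, -1.51, -1.19 and -1.37 in MC26 and -2.18, -2.04 and -2.20 in M1B26. MC26 overlapped CT (difference -0.12, exact permutation p = 0.6). M1B26 was below both other groups without overlap, by 0.91 against CT and by 0.79 against MC26 (exact permutation p = 0.1 each). CDH1 over VIM, a common epithelial-to-mesenchymal index, was -3.87 ± 0.32 (SD, n = 3) in CT, -4.78 ± 0.20 in MC26 and -4.48 ± 0.42 in M1B26. MC26 was below CT without overlap (difference -0.91, exact permutation p = 0.1), and M1B26 overlapped both CT (-0.61, p = 0.2 by exact permutation) and MC26 (0.30, p = 0.3 by exact permutation). None of the 9 ratio comparisons can reach 0.05 in this design.

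**Figure D2:**
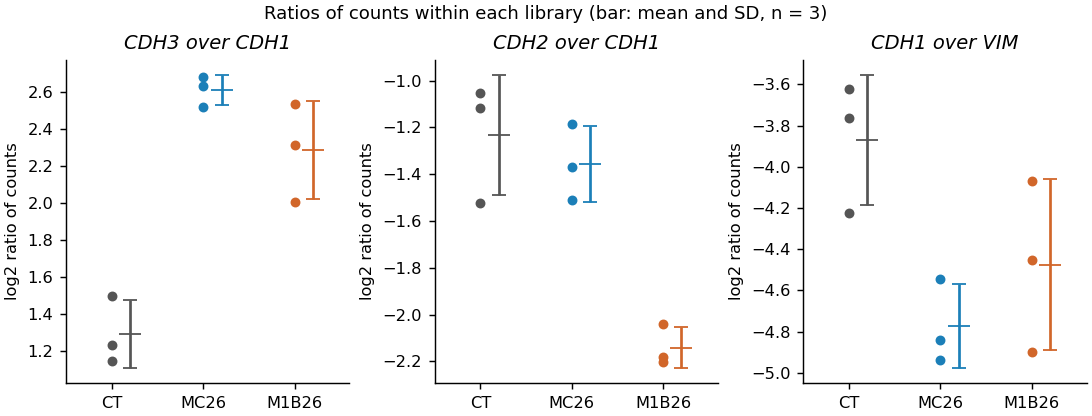
Log2 ratios of counts in each library for CDH3 over CDH1, CDH2 over CDH1 and CDH1 over VIM; points are libraries, and the bar beside them is the mean with its SD (n = 3). The CDH3 over CDH1 ratio is at most 1.497 in CT and at least 2.01 in every transformed library, and the CDH2 over CDH1 ratio is at most -2.04 in M1B26 and above that in every other library.

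Vimentin, the intermediate filament protein of mesenchymal cells and of many cultured epithelial lines, is encoded by VIM (chr10:17228241-17237593, plus strand). It was already abundant in the parental cells, at 1061, 1021 and 1264 CPM in CT, 1287, 1150 and 931 in MC26 and 938, 1022 and 929 in M1B26. All 3 groups overlapped. The log2 difference from CT was 0.01 in MC26 (95% interval -0.25 to 0.26, edgeR adjusted p = 0.958) and -0.21 in M1B26 (-0.47 to 0.04, adjusted p = 0.154). Between M1B26 and MC26 the difference was -0.22 (adjusted p = 0.152), and it passed the threshold without MC26 replicate 3 (-0.34, adjusted p = 0.0186). VIM shares 656 bp of exon with its antisense RNA VIM-AS1, whose mean was 1.94 ± 0.62, 2.02 ± 0.2 and 1.18 ± 0.016 CPM in CT, MC26 and M1B26. That level was far below that of VIM. VIM-AS1 was lower in M1B26 than in CT (log2 fold change -0.764, edgeR adjusted p = 0.0145) and than in MC26 (-0.775, adjusted p = 0.0184), both without overlap. The first call was lost without CT replicate 1 (adjusted p = 0.064) or CT replicate 3 (0.0676). The second was lost without MC26 replicate 2 (0.0703), M1B26 replicate 2 (0.0537) or M1B26 replicate 3 (0.0523).

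Of the other intermediate filament genes, 5 of 12 passed the filter. In MC26 against CT 1 of these 5 was lower and 0 were higher, beside 19.9% and 18.8% of all genes. In M1B26 1 was higher and 2 were lower, beside 25.2% and 23.7%. The 0 higher in MC26 became 2 without CT replicate 3. NES, encoding nestin, a filament of progenitor cells, was 0.862 ± 0.192 CPM in CT and rose to 3.02 ± 0.31 CPM in M1B26 (log2 fold change 1.76, edgeR adjusted p = 7.23e-05). In MC26 its mean was 0.658 ± 0.163 CPM.

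**Figure D3:**
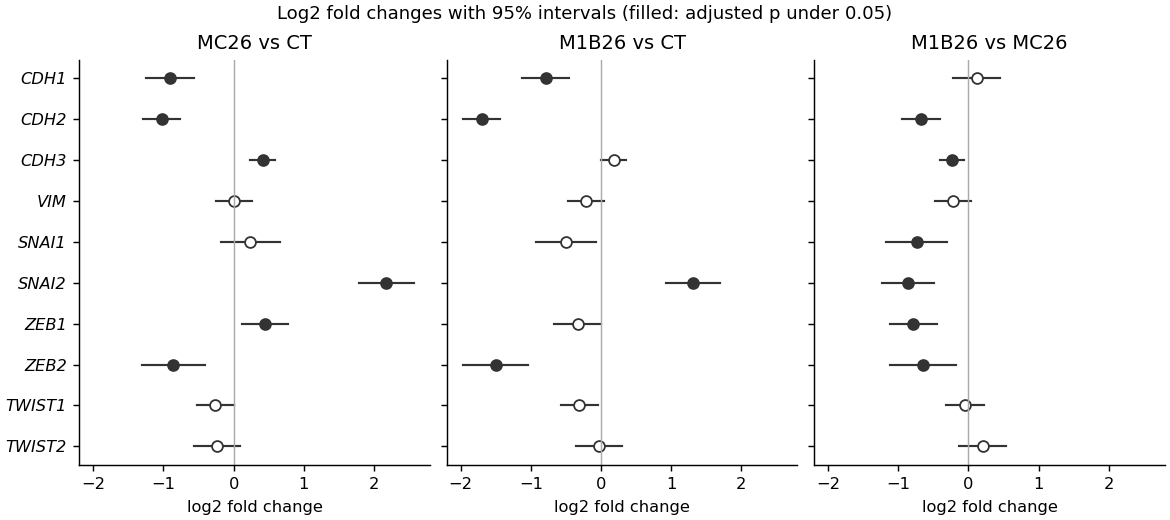
Log2 fold changes of the 10 genes in the 3 comparisons, with 95% intervals from the edgeR fit; filled points passed at an adjusted p under 0.05. SNAI2 is furthest right in both comparisons with CT (2.18 and 1.32), CDH2 is furthest left (-1.03 and -1.70), and in M1B26 against MC26 all 6 filled points lie left of 0.

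SNAI2, encoding Slug, a Snail family repressor that keeps mammary basal cells in their state and represses CDH1, lies at chr8:48917598-48921740 on the minus strand. It measured 30.2, 31.3 and 29.9 CPM in CT, 163, 154 and 96.3 in MC26 and 71.9, 89.2 and 66.6 in M1B26. The 3 groups did not overlap: CT was lowest and almost without spread, MC26 highest, and MC26 replicate 3 was lower than the other MC26 libraries. SNAI2 rose 4.53-fold in MC26 (log2 fold change 2.18, SE 0.18, edgeR adjusted p = 6.76e-06) and 2.49-fold in M1B26 (1.32, SE 0.18, adjusted p = 0.000128), and M1B26 was 1.82-fold below MC26 (-0.86, SE 0.17, adjusted p = 0.00256). Among all genes tested, its absolute change ranked 574 of 15717 in MC26 and 1308 in M1B26.

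SNAI1, encoding Snail itself (chr20:49982980-49988886, plus strand), was low in all groups, at 3.23, 2.62 and 3.83 CPM in CT, 4.03, 4.13 and 3.46 in MC26 and 2.25, 1.78 and 2.90 in M1B26. Each transformed line overlapped CT, and all M1B26 libraries were below all MC26 libraries. The log2 difference from CT was 0.24 in MC26 (SE 0.19, edgeR adjusted p = 0.355) and -0.50 in M1B26 (SE 0.20, adjusted p = 0.0554). The latter passed when CT replicate 2 (-0.61, adjusted p = 0.0303) or M1B26 replicate 3 (-0.70, adjusted p = 0.0172) was left out, and under DESeq2 (adjusted p = 0.0466). In M1B26 against MC26, SNAI1 was 1.67-fold lower (-0.74, SE 0.20, adjusted p = 0.0126), a call that was lost without M1B26 replicate 2 (-0.58, adjusted p = 0.0515).

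SNAI3, a further Snail family gene, was named after its values were seen. It was near the detection limit in CT (5, 1 and 3 counts) and MC26 (0, 2 and 4 counts) and reached 14, 11 and 24 counts in M1B26, or 0.340 ± 0.094 CPM. M1B26 did not overlap either other group (log2 fold change 2.68 against CT, SE 0.54, edgeR adjusted p = 0.00199).

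ZEB1 and ZEB2 encode zinc-finger homeodomain repressors that bind paired E-boxes and act on largely the same epithelial genes. ZEB1 (chr10:31318495-31529814, plus strand) measured 6.25, 8.21 and 7.85 CPM in CT, 11.02, 10.6 and 8.75 in MC26 and 4.80, 6.51 and 6.28 in M1B26. MC26 was above both other groups without overlap, and M1B26 overlapped CT. The rise in MC26 was 1.37-fold (log2 fold change 0.45, SE 0.15, edgeR adjusted p = 0.0327). That call did not hold without CT replicate 1 (adjusted p = 0.138), MC26 replicate 1 (0.102) or MC26 replicate 2 (0.0929), nor with total counts as the only scaling (0.0707). The difference of M1B26 from CT was -0.33 (SE 0.15, adjusted p = 0.0915), and without CT replicate 1 it was -0.45 with an adjusted p of 0.0447. ZEB1 was 1.72-fold lower in M1B26 than in MC26 (-0.79, SE 0.15, adjusted p = 0.00216), which held under the omission of any library.

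ZEB2 (chr2:144364364-144521057, minus strand) went the other way in MC26. Its level was 5.66, 7.64 and 6.71 CPM in CT, 2.61, 4.42 and 3.93 in MC26 and 1.87, 2.75 and 2.40 in M1B26. All transformed libraries were below all CT libraries, and the lowest MC26 library fell within the M1B26 range. ZEB2 was 1.81-fold lower in MC26 (log2 fold change -0.86, SE 0.20, edgeR adjusted p = 0.00699) and 2.83-fold lower in M1B26 (-1.50, SE 0.21, adjusted p = 0.00018). The difference of M1B26 from MC26 (-0.64, SE 0.21, adjusted p = 0.0339) was lost without MC26 replicate 2 (adjusted p = 0.137), MC26 replicate 3 (0.076), M1B26 replicate 1 (0.117) or M1B26 replicate 3 (0.0724). In MC26, then, the paralogs differed from CT in opposite directions.

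Antisense RNAs overlap both ZEB genes. ZEB1-AS1, which shares 396 bp of exon with ZEB1, averaged 2.49 ± 0.05 CPM in CT, with 2.01 ± 0.07 in MC26 and 2.12 ± 0.44 in M1B26. It passed in none of the 3 comparisons (edgeR adjusted p = 0.168 for MC26 and 0.267 for M1B26 against CT, and 0.748 between the transformed lines). ZEB2-AS1 had 0 counts in every library. Whether the counting used strand is not given in the sources used here, and without strand reads of a gene and its antisense partner cannot be told apart where their exons overlap. Other annotated noncoding RNAs overlap CDH1, CDH2, CDH3, SNAI2 and TWIST1 and were not analysed here.

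The microRNAs that target ZEB messengers are shown because their host RNAs were in the count table, though mature microRNAs were not measured. The sequences are from RefSeq (GRCh38.p14), with the seed, bases 2 to 8, in capitals. The first has a seed of its own:
hsa-miR-205-5p: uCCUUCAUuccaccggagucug
The next 3 share the seed AAUACUG:
hsa-miR-200b-3p: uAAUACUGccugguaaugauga
hsa-miR-200c-3p: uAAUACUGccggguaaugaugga
hsa-miR-429: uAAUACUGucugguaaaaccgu
The last 2 share AACACUG:
hsa-miR-200a-3p: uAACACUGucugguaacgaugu
hsa-miR-141-3p: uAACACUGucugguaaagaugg
Exact complements of the AAUACUG seed occurred 6 times in the 3′ untranslated region of ZEB1 (2540 bp) and 5 times in that of ZEB2 (5370 bp), where 16.1% of 19061 such regions held at least 1. Complements of AACACUG occurred 3 and 4 times (18.2% of regions held any), and those of the miR-205 seed CCUUCAU 1 and 0 times (11.4%). Longer regions hold more matches, and a match is a description of sequence.

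Both host RNAs were added after their values were seen. MIR205HG, the host of miR-205, measured 104, 83.6 and 79.3 CPM in CT, 401, 341 and 300 in MC26 and 434, 465 and 358 in M1B26. All transformed libraries were far above CT (log2 fold change 1.96, SE 0.14, edgeR adjusted p = 2.73e-06 in MC26, and 2.23, SE 0.14, adjusted p = 8.75e-07 in M1B26), and the transformed lines overlapped. MIR200CHG, the host of miR-200c and miR-141, was scarce, with means of 0.737 ± 0.048, 0.518 ± 0.143 and 1.56 ± 0.27 CPM in CT, MC26 and M1B26. It rose in M1B26 (1.08, SE 0.23, adjusted p = 0.00246) and was higher there than in MC26 (1.58, SE 0.24, adjusted p = 0.000566), where ZEB1 and ZEB2 were both higher than in M1B26. A link between these RNAs and the ZEB levels was not tested.

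TWIST1 and TWIST2 encode basic helix-loop-helix factors that act in mesoderm and neural crest. TWIST1 (chr7:19020991-19117636, minus strand) was at 9.96, 8.69 and 10.46 CPM in CT, 7.61, 8.37 and 8.49 in MC26 and 6.97, 9.16 and 7.52 in M1B26. MC26 lay just below CT without overlap, and M1B26 overlapped both. The log2 difference from CT was -0.26 in MC26 (95% interval -0.52 to 0.01, edgeR adjusted p = 0.113) and -0.31 in M1B26 (-0.57 to -0.05, adjusted p = 0.0518). The M1B26 difference passed without CT replicate 2 (adjusted p = 0.029), without M1B26 replicate 2 (0.0181) and under DESeq2 (0.0416).

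TWIST2 (chr2:238848032-238910534, plus strand) measured 17.9, 12.7 and 20.7 CPM in CT, 13.5, 14.4 and 16 in MC26 and 17.5, 17.9 and 15.3 in M1B26, with CT replicate 2 lowest of all. The groups overlapped in every comparison with CT and with each other. Its log2 difference from CT was -0.24 in MC26 (95% interval -0.57 to 0.09, edgeR adjusted p = 0.235) and -0.03 in M1B26 (-0.36 to 0.29, adjusted p = 0.865). Without CT replicate 2, the shallowest library, the MC26 difference was -0.39 and passed (adjusted p = 0.0175). No gene of the Twist family rose in either line.

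Per kilobase of exonic length, which allows levels of different genes to be set side by side, VIM led in every group (215 ± 25.2 CPM per kb in CT, 217 ± 34.6 in MC26, 186 ± 9.94 in M1B26; SD, n = 3) and ZEB2 was last (0.255, 0.140 and 0.0895). SNAI2 moved up in this order. In CT it stood at 9.29 CPM per kb, below CDH1 (12.6) and overlapping TWIST2 (8.01). In MC26 only VIM was above it, SNAI2 standing at 42 CPM per kb, overlapping CDH3 (38.9) and above CDH1 (6.71), and in M1B26 it stood at 23.1, below VIM and CDH3 and above CDH1 (7.26). The pairs of neighbours in the order whose ranges overlapped were SNAI2 and TWIST2 in CT, SNAI2 and CDH3 in MC26, TWIST2 and CDH1 in both transformed lines, and SNAI1 and CDH2 in M1B26. The exonic lengths are those of the GENCODE release used here, 26151 bp for ZEB2. Each joins all annotated exons of a gene and is not the length of the transcript expressed. The order between genes therefore depends in part on the annotation.

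Seen as profiles over the 9 libraries, the genes most like SNAI2 were LETM2, SERPINB5 (maspin, a mammary basal serpin) and ELK3, with Pearson r of 0.998, 0.994 and 0.993 among 10629 genes compared. CDH2 was most like SERTAD2 and DOCK9 (both 0.993), CDH1 most like RASEF (0.975) and SHROOM3 (0.955), an organiser of apical actin, and ZEB2 most like PDHA1 and MBTPS1 (both 0.98). The best match of VIM reached only 0.902. The 9 points fall into 3 lines, so these values mostly restate differences between lines.

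Cadherins act through partners at the adherens junction. Of 15 adherens junction genes, all tested, 2 were higher and 2 lower in MC26 than in CT, where 18.8% of all genes were higher and 19.9% lower. In M1B26 2 were higher and 7 lower, beside 25.2% and 23.7% of all genes, and the median log2 fold change was -0.03 in MC26 and -0.19 in M1B26. The 2 lower in MC26 became 1 without CT replicate 1, CT replicate 3 or MC26 replicate 2, and 4 without CT replicate 2. NECTIN1, a nectin that adheres beside cadherins, rose from 105 ± 15.1 CPM to 246 ± 19.97 in MC26 and 298 ± 35 in M1B26 (log2 fold change 1.23 and 1.504, edgeR adjusted p = 1.97e-05 and 3.3e-06). LIMA1, an actin-binding protein that ties the cadherin complex to actin, rose in both lines as well (1.21 and 1.01, adjusted p = 4.12e-05 and 8.87e-05). PLEKHA7, which links p120-catenin to microtubules, had 20.4 ± 4.2 CPM in MC26 beside 20.8 ± 0.9 in CT, and fell in M1B26 to 5.35 ± 0.47 (-1.96, SE 0.15, adjusted p = 2.33e-06).

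The catenins were named after their values were seen. Alpha-catenin, CTNNA1, which joins the complex to actin, fell in both lines (log2 fold change -0.35 in MC26 and -0.49 in M1B26, SE 0.06 each, edgeR adjusted p = 0.00137 and 9.13e-05). Beta-catenin, CTNNB1, differed from CT by -0.16 in MC26 (adjusted p = 0.0684) and by -0.10 in M1B26 (adjusted p = 0.201), and p120-catenin, CTNND1, by 0.04 (0.74) and -0.19 (0.0586). The CTNNB1 difference passed in MC26 under DESeq2 (adjusted p = 0.0438), with a mean of at least 50 counts (0.0458) and with total counts as the scaling (0.0162), and with total counts in M1B26 too (0.0287). The CTNND1 difference passed in M1B26 without M1B26 replicate 3 (-0.25, adjusted p = 0.0196), under DESeq2 (0.0399), with a mean of at least 50 counts (0.0426) and with total counts (0.0128). Plakoglobin, JUP, was lower in MC26 (-0.46, SE 0.14, adjusted p = 0.0258), though its ranges overlapped and the call was lost without CT replicate 1 (adjusted p = 0.107), CT replicate 3 (0.0813), MC26 replicate 1 (0.102) or MC26 replicate 2 (0.0906). Among 9 genes of cadherin processing and endocytosis, 1 was higher and 0 lower in MC26, beside 18.8% and 19.9% of all genes. In M1B26 0 were higher and 5 lower, beside 25.2% and 23.7%. The 1 higher in MC26 became 0 without MC26 replicate 1 and 2 without CT replicate 2, and the 0 higher in M1B26 became 1 without CT replicate 2. The 5 became 0 without CT replicate 1 or any M1B26 library, 2 without CT replicate 3 or MC26 replicate 2, and 3 without MC26 replicate 1 or 3.

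Of 20 further cadherin genes, 5 passed the filter on low counts. In MC26 2 of these were lower and 0 higher, beside 19.9% and 18.8% of all genes. In M1B26 4 were lower and 1 higher, beside 23.7% and 25.2%. The 2 became 1 without MC26 replicate 2, and the 1 higher became 0 without CT replicate 1, CT replicate 2, M1B26 replicate 1 or M1B26 replicate 2. CDH11, the cadherin of osteoblasts and stromal cells, had 2.66 ± 0.203 CPM in CT and fell to 0.281 ± 0.102 in MC26 and 1.15 ± 0.32 in M1B26 (log2 fold change -3.22 and -1.19, edgeR adjusted p = 1.01e-05 and 0.00149). Like CDH2, CDH11 was lower in both lines than in CT. Unlike CDH2, it was higher in M1B26 than in MC26 without overlap (2.035, SE 0.29, edgeR adjusted p = 0.000389).

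Epithelial genes described as targets of ZEB and Snail repressors were mostly lower in MC26. There 12 of 16 were lower than in CT and 1 was higher, beside 19.9% and 18.8% of all genes. The median log2 fold change was -0.75, beside 0.00 over all genes. In M1B26 7 were lower and 1 higher (median -0.22), beside 23.7% and 25.2% of all genes. In the direct comparison 10 were higher in M1B26 than in MC26 and 0 lower (median 0.63), beside 21.2% and 18.4% of all genes. Leaving out any 1 library left 11 to 12 lower in MC26, 6 to 8 lower in M1B26, and 10 to 11 higher in M1B26 than in MC26. The 1 higher in MC26 became 0 without CT replicate 1 or MC26 replicate 1, and the 1 higher in M1B26 became 2 without CT replicate 3.

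EPCAM, an epithelial adhesion molecule named after its values were seen, differed between the lines. It measured 74.4, 71.2 and 65.6 CPM in CT, 11.7, 13.6 and 19.1 in MC26 and 67.1, 63.5 and 85.7 in M1B26. MC26 was far below both other groups, which overlapped. Against CT, EPCAM differed by -2.25 on the log2 scale in MC26 (SE 0.17, edgeR adjusted p = 3.65e-06) and 0.04 in M1B26 (SE 0.16, adjusted p = 0.865), and M1B26 exceeded MC26 by 2.28 (adjusted p = 5.22e-06). The tight junction gene CLDN7, also named after its values were seen, had 20.9 ± 2.9, 5.98 ± 0.67 and 17.5 ± 6.7 CPM in CT, MC26 and M1B26, a fall in MC26 of 1.81 on the log2 scale (adjusted p = 0.00014). In M1B26 CLDN7 differed from CT by -0.25 (adjusted p = 0.355), and by -0.61 (adjusted p = 0.00431) without M1B26 replicate 3.

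Occludin, OCLN, another tight junction protein, averaged 4.45 ± 0.64, 0.432 ± 0.073 and 2.37 ± 0.81 CPM in CT, MC26 and M1B26. It fell in MC26 (log2 fold change -3.36, edgeR adjusted p = 6.76e-06) and, less far, in M1B26 (-0.896, adjusted p = 0.00687). Neither line overlapped CT. RAB25, a GTPase of apical recycling, was nearly undetected in MC26. Its counts were 374, 87 and 340 in CT, 1, 0 and 1 in MC26 and 7, 3 and 7 in M1B26. Over the 3 libraries of each group the MC26 level was 277-fold below CT (95% exact interval 76.5 to 2290, counting error only), and M1B26 differed from CT by -5.18 on the log2 scale (SE 0.29, adjusted p = 4.02e-07). MARVELD3, a tight junction protein related to tricellulin, went against the list in M1B26, where it rose from 4.56 ± 0.804 CPM to 12.2 ± 2.04 (1.40, adjusted p = 0.000106).

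**Figure D4:**
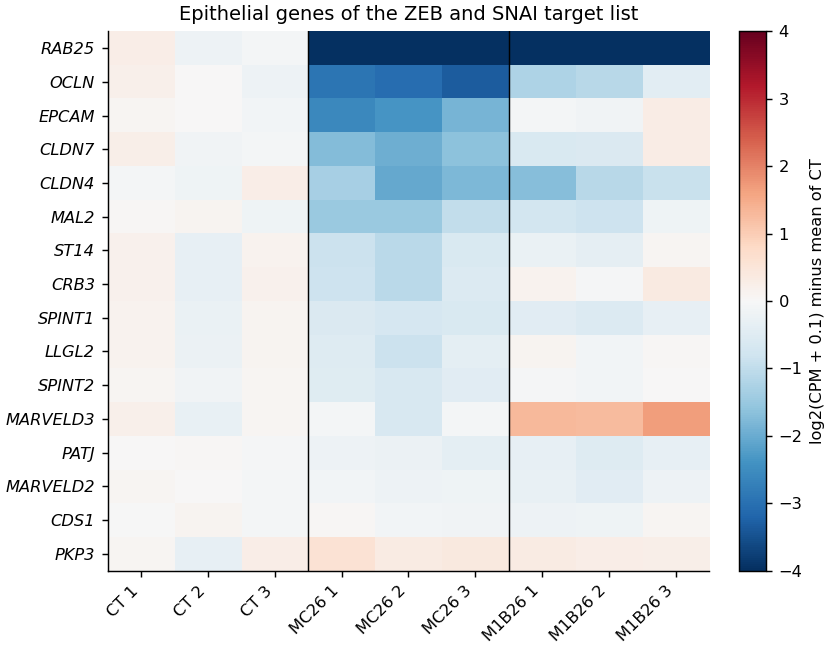
The 16 epithelial genes in each library, as log2(CPM + 0.1) minus the mean of the CT libraries, genes ordered by their mean in MC26 and the colour scale ending at 4 in either direction. The 3 MC26 columns are blue from RAB25 down to SPINT2, and in the M1B26 columns EPCAM, CRB3 and LLGL2 are near 0 and MARVELD3 is red.

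Factors that maintain the epithelial state and oppose ZEB1 were also mostly lower in MC26. Of 12 such genes, which include the splicing regulators ESRP1 and ESRP2 beside transcription factors, 9 were tested. In MC26 6 were lower and 2 higher than in CT, beside 19.9% and 18.8% of all genes. In M1B26 4 were lower and 0 higher (1 higher without M1B26 replicate 2), beside 23.7% and 25.2%. The 2 higher in MC26, named after their values were seen, did not overlap CT. They were KLF4 (log2 fold change 0.994, edgeR adjusted p = 0.00456) and KLF5 (0.568, adjusted p = 7.53e-05). EHF, an epithelial ETS factor, fell from 43.5 ± 4.2 CPM to 3.39 ± 3.38 in MC26 and 5.41 ± 3.19 in M1B26 (log2 fold change -3.66 and -2.98, edgeR adjusted p = 0.000489 and 0.000837). GRHL3, a grainyhead factor, fell from 7.60 ± 1.24 to 1.02 ± 0.57 and 3.14 ± 1.53 CPM (-2.90 and -1.27, adjusted p = 0.000188 and 0.00913). ELF3, a related ETS gene named after its values were seen, fell in MC26 (-3.55, adjusted p = 0.00203). It was scarce, at 78, 13 and 115 counts in CT, 1, 2 and 8 in MC26 and 7, 8 and 37 in M1B26. In CPM its M1B26 range overlapped that of CT. Without MC26 replicate 3, the MC26 library with the most of both ETS transcripts, the changes in MC26 were -4.89 for EHF and -4.74 for ELF3. Without M1B26 replicate 3 those in M1B26 were -3.59 for EHF and -2.62 for ELF3. In M1B26 the ELF3 fall (-1.59, adjusted p = 0.0269) was lost without CT replicate 1 (adjusted p = 0.0684), CT replicate 3 (0.108), M1B26 replicate 1 (0.0994) or M1B26 replicate 2 (0.1).

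Mesenchymal genes did not move one way. Of 18 tested out of 20, 7 were higher and 7 lower in MC26 than in CT, beside 18.8% and 19.9% of all genes. In M1B26 5 were higher and 6 lower, beside 25.2% and 23.7%. POSTN, a matrix protein of fibroblasts, had 4, 3 and 10 counts in CT, 2652, 1004 and 614 in MC26 and 28, 75 and 15 in M1B26. The log2 fold change of POSTN in MC26 was 8.48 (SE 0.85, edgeR adjusted p = 2.75e-05), and 7.67 without MC26 replicate 1. In M1B26 the POSTN call (3.11, adjusted p = 0.0464) was lost without any of CT replicates 1, 2 and 3 or M1B26 replicates 1 and 2 (adjusted p = 0.0695 to 0.218). The count of 5 higher in M1B26 fell to 2 without CT replicate 1, CT replicate 2 or M1B26 replicate 2, and to 3 without CT replicate 3, MC26 replicate 2, M1B26 replicate 1 or M1B26 replicate 3.

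On the lower side, S100A4, a calcium-binding protein of motile fibroblast-like cells, fell from 115 ± 3.9 CPM to 13.4 ± 8.1 in MC26 and 19.3 ± 1.7 in M1B26 (log2 fold change -3.10 and -2.58, edgeR adjusted p = 2.34e-05 and 4.46e-05). Without MC26 replicate 3 the S100A4 change in MC26 was -3.71. The collagen crosslinking enzyme LOX fell in MC26 (-1.43, adjusted p = 0.00314), and the matrix protease MMP2 fell in M1B26 (-1.59, adjusted p = 0.000146). NT5E, the surface enzyme CD73, named after its values were seen, was higher in MC26 (325 ± 93.6 CPM) and in M1B26 (178 ± 1.1) than in CT (83.6 ± 8.0; 1.96 and 1.09, adjusted p = 1.19e-05 and 0.000377).

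Of 15 other factors linked to EMT, 12 were tested. In MC26 1 was higher and 4 lower, beside 18.8% and 19.9% of all genes. In M1B26 2 were higher and 4 lower, beside 25.2% and 23.7%. The same shares of all genes hold for the corepressors and stability genes below. HMGA2, a chromatin protein that acts upstream of SNAI1 and TWIST1, rose from 42.7 ± 1.54 CPM to 104 ± 12.1 in MC26 and 109 ± 6.01 in M1B26 (log2 fold change 1.29 and 1.35, edgeR adjusted p = 2.19e-06 and 1.07e-06). SOX9 was lower in MC26 (-1.20, adjusted p = 6.43e-05), and the forkhead gene FOXC2 was lower in M1B26 (-1.89, adjusted p = 8.42e-06). The 1 higher in MC26 became 2 without CT replicate 3. The 4 lower in MC26 became 2 without CT replicate 1, MC26 replicate 1 or MC26 replicate 2, and the 4 lower in M1B26 became 2 without CT replicate 1, M1B26 replicate 1 or M1B26 replicate 2. Of 13 corepressors that Snail and ZEB factors recruit, 2 were higher and 3 lower in MC26, and 0 higher and 6 lower in M1B26, the 6 becoming 3 without M1B26 replicate 1, the 0 becoming 1 without CT replicate 2, and the 2 becoming 1 without CT replicate 1, MC26 replicate 1 or MC26 replicate 2. Of 10 genes that set the stability of the Snail protein, 2 were higher and 1 lower in MC26, and 1 higher and 1 lower in M1B26. The 2 became 1 without CT replicate 1 or MC26 replicate 3, and the 1 higher in M1B26 became 2 without CT replicate 2. The 1 lower in M1B26 became 0 without CT replicate 1, CT replicate 2, M1B26 replicate 2, M1B26 replicate 3 or any MC26 library.

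**Figure D5:**
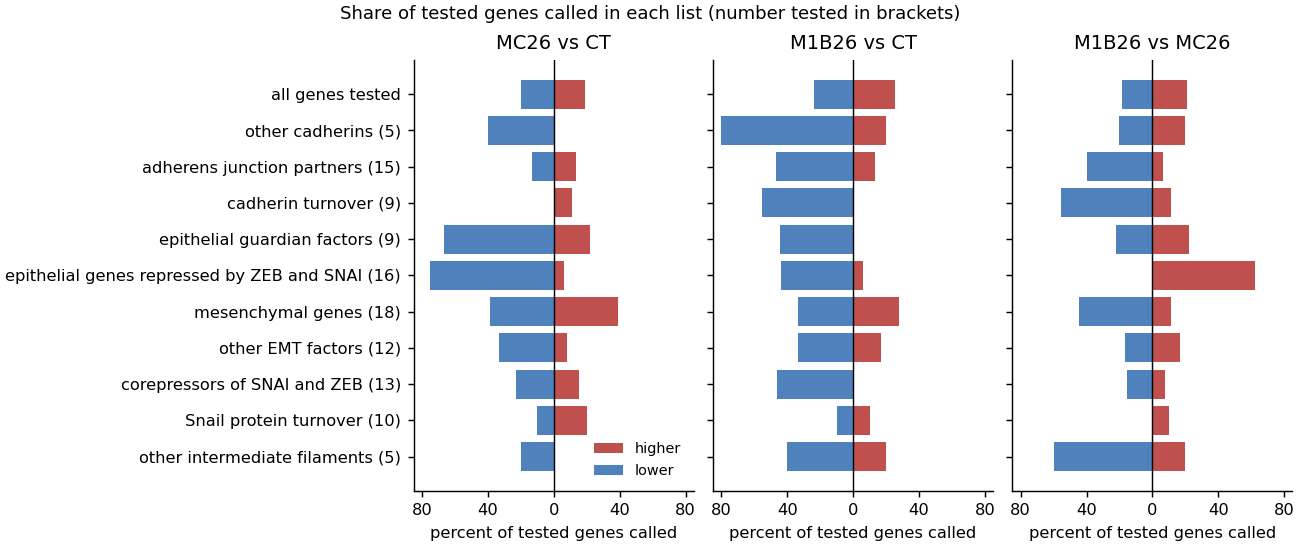
Share of the tested genes of each list that passed the edgeR test, higher to the right and lower to the left, in each comparison, with all genes tested at the top and the number tested in brackets. The epithelial genes have 12 of 16 lower in MC26 than in CT and 10 of 16 higher in M1B26 than in MC26. Factors that maintain the epithelial state have 6 of 9 lower in MC26, and other cadherins 4 of 5 lower in M1B26 than in CT. The mesenchymal genes have 7 of 18 on either side in MC26.

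Counted by non-overlapping libraries rather than by the model, 7 of the 10 genes stood apart from CT in MC26 (50.3% of all genes tested), 3 of them higher (24.6%) and 4 lower (25.8%). In M1B26 against CT 4 did (59%), 1 higher (30%) and 3 lower (29%). In M1B26 against MC26 5 did (53.5%), all lower (25.6%). A change of at least 2-fold that passed the test was seen for SNAI2 and CDH2 in MC26, where 10.8% of all genes did so, 4% higher and 6.79% lower. It was seen for SNAI2, CDH2 and ZEB2 in M1B26, where 11.7% did so, 6.02% higher and 5.71% lower. Between M1B26 and MC26 it was seen for 0 of the 10 genes, where 8.17% of all genes did so, 5.92% higher and 2.25% lower.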

How the data were processed

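Total RNA of 9 cultures was turned into poly-A libraries and sequenced in pairs. The study's methods give alignment to GRCh38 with STAR 2.7.3a and the GENCODE annotation, and name Salmon 1.1.0 for quantification. The deposited table holds raw counts per gene symbol, whole numbers that were not normalized; the program that made it and its strand setting are not given in the sources used here.

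From these counts, genes with enough reads (filterByExpr, minimum count 10) were fitted with edgeR 4.0.16 (quasi-likelihood, TMM scaling, group as the only term, all 9 libraries), with Benjamini-Hochberg adjustment over 15717 genes and a threshold of 0.05. CPM used the scaled library sizes. Intervals are 95% t intervals of the fit, and the exact interval for RAB25 covers counting error only. Ratios added 0.5 to each count. The biological coefficient of variation was 10.4%. Positions and exonic lengths came from GENCODE 44. The procedure was tested on simulated data. Alternatives were DESeq2 1.42.0, other scaling and filters, the 6 compared libraries, a replicate block, stricter thresholds and omission of each library.

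Members and lists were chosen with earlier results of these data known. From each list the 2 called genes furthest in each direction against CT were named, if the log2 change was at least 1 and the mean at least 1 CPM; others are marked as named after their values were seen. A few items are not reported here.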

Additional observations from a re-analysis of the deposited data

Results flagged for a closer look

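The 6 genes that differed between the transformed lines themselves, by the edgeR test of M1B26 against MC26, were CDH2 (log2 difference -0.68, adjusted p = 0.00157), CDH3 (-0.235, adjusted p = 0.0372), ZEB1 (-0.79, adjusted p = 0.00216), ZEB2 (-0.64, adjusted p = 0.0339), SNAI1 (-0.74, adjusted p = 0.0126) and SNAI2 (-0.86, adjusted p = 0.00256). All were lower in M1B26. For CDH3 the call was lost without MC26 replicate 1 (adjusted p = 0.113), MC26 replicate 2 (0.0703), MC26 replicate 3 (0.0611), M1B26 replicate 1 (0.0846) or M1B26 replicate 2 (0.142). With 3 libraries per group, single libraries far from the others were not tested for.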

How the results depend on the processing

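Of 540 recomputed fold changes of the 10 genes, 484 kept direction and side of the threshold, 30 lost the call, 16 gained it and 10 changed sign. Total counts as the only scaling moved the median of all genes to -0.08 in MC26 and -0.09 in M1B26 against CT. With that scaling 8 of the 10 genes passed in M1B26 (1 higher, 7 lower). Over all 15717 genes tested, 3094 were higher there and 4729 lower. At an adjusted p under 0.01, 3698 genes passed in MC26 against CT and 3685 between the transformed lines, with 3 of the 10 genes in the latter. Under edgeR's glmTreat against 1.5-fold, 1463 genes passed in MC26 and 1725 in M1B26 against CT and 964 between the transformed lines, with 2 of the 10 genes in MC26 and 0 between the transformed lines, where 6 had passed the plain test. Omitting single libraries left 5 to 7 of the 10 genes in MC26, 4 to 6 in M1B26 and 4 to 6 between the transformed lines. These fits called 4524 to 6127 of all genes in MC26, 6282 to 7941 in M1B26 and 4503 to 7166 between the lines. They tested 15959 to 16069 genes.

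Values that changed sign were uncalled. With total counts they were, in MC26, VIM (-0.068), CTNND1 (-0.044) and VIM-AS1 (-0.059), and in M1B26 EPCAM (-0.058). With a mean of at least 50 counts they were VIM (-0.004) and VIM-AS1 (-0.005) in MC26. Omitting single libraries gave -0.096 to 0.128 for VIM, -0.945 to 0.506 for SNAI3 and -0.178 to 0.168 for VIM-AS1 in MC26, -0.198 to 0.126 for TWIST2, -0.104 to 0.125 for EPCAM and -0.042 to 0.185 for JUP in M1B26, and, between the transformed lines, -0.08 to 0.27 for CDH1, -0.169 to 0.031 for TWIST1 and -0.071 to 0.223 for ZEB1-AS1. The cause was not tested.

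Deviations of same-numbered libraries from their group means correlated at r -0.114 to 0.136 over 9 pairs, 2 of them over 0.1. Other pairs ran from -0.129 to 0.119. Between MC26 and M1B26 the same-numbered pairs were all positive (0.081, 0.042 and 0.136), and the other pairs ran from -0.114 to 0.041. Whether the numbers pair the samples cannot be told from these values. Of 9 libraries, 2 were most like those of their own number in both other groups. With the replicate block 6, 4 and 6 of the 10 genes passed in MC26, in M1B26 and between the transformed lines, as without it. Over all 15717 genes, 2846 were higher and 3033 lower in MC26, 3913 and 3600 in M1B26, and 3239 and 2770 between the lines. Among the named genes reported here, the block changed the calls, between the transformed lines, of CTNND1 (edgeR adjusted p = 0.0587), ELF3 (0.0216) and MIR205HG (0.0297).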
